A study of Mus musculus with 18 samples.

Results

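The 10 genes described here belong to the leukocyte adhesion cascade and were followed across 18 mouse heart libraries. They were the rows of the deposited gene tables whose symbol was Itgal, Itgam, Itgax, Itgb2, Itga4, Icam1, Vcam1, Sele, Selp or Selplg, that is 10 of 19197 genes, picked by name with earlier results of these data known. Of these, 6 encode proteins of the leukocyte surface and 4 encode adhesion molecules known best from endothelium. The study asked how DCA and TGR5, the membrane bile acid receptor, bear on inflammation after myocardial infarction (MI). The labels leave the abbreviation DCA unexplained; it is read here as deoxycholic acid, one of the bile acids that gut bacteria make.

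All mice were C57BL/6, an inbred laboratory strain, and the heart apex was taken 1 day after MI or a sham operation. The groups were MI hearts under DCA, at a daily 10 mg/kg (MI_DCA), MI hearts under vehicle (MI_vehicle) and sham-operated hearts under vehicle (sham_vehicle), with 6 libraries each. The labels name no transgene or deletion in any group, and the nature of the vehicle, the age of the mice and the start of dosing are not stated there. Whether each library stands for 1 mouse is not stated either, so a p-value here reflects only the spread among libraries, which are called hearts below. Values are FPKM, reads scaled for the length of the transcript and for the size of the library, so levels can be set side by side between genes.

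Leukocytes leave the blood in steps. Selectins on activated endothelium, P-selectin (Selp) and E-selectin (Sele), catch flowing cells through sugar-bearing ligands such as PSGL-1 (Selplg), and the cells roll. Integrins then change shape and hold the cell: the beta2 chain (Itgb2) pairs with alpha L (Itgal, forming LFA-1), alpha M (Itgam, forming Mac-1) or alpha X (Itgax), and binds ICAM-1 (Icam1), while alpha 4 (Itga4) paired with beta1 forms VLA-4 and binds VCAM-1 (Vcam1). P-selectin is also stored in platelets, and ICAM-1 and VCAM-1 can be made by other cells of inflamed tissue. In the infarcted heart neutrophils and then monocytes use these molecules to enter the injured muscle.

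On GRCm38.p6, 3 alpha chain genes lie on chromosome 7: Itgal (127296139 to 127335137), Itgam (128062640 to 128118491) and Itgax (128129526 to 128150657). Both selectin genes lie on chromosome 1, Sele at 164039614 to 164058487 and Selp at 164115264 to 164150026. Itgb2 is on chromosome 10 (77530329 to 77565708), Itga4 on chromosome 2 (79255426 to 79333114), Icam1 on chromosome 9 (21015940 to 21028814), Vcam1 on chromosome 3 (116110020 to 116129688) and Selplg on chromosome 5 (113817798 to 113832528).

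RefSeq promoter sequences of this build were at hand for 6 of the 10 genes: Itgam, Itgax, Itga4, Icam1, Sele and Selp. Shown are the 250 bases before the start of 4 genes that lie at different steps of the cascade, 5′ to 3′ on the plus strand, from Itgam (chr7:128062390-128062639), Icam1 (chr9:21015690-21015939), Sele (chr1:164047984-164048233, the start used in the RefSeq promoter table) and Selp (chr1:164115014-164115263). Capitals mark GAGGAA, the core of ETS-family sites of the PU.1 type, read on either strand, and GGANATTCC, a sequence of the kind bound by NF-kB, which was picked after the promoters had been read.
Itgam: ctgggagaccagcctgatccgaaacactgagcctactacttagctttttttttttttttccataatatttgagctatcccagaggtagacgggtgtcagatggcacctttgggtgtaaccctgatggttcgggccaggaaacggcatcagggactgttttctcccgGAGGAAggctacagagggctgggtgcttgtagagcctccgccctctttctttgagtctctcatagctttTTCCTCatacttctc
Icam1: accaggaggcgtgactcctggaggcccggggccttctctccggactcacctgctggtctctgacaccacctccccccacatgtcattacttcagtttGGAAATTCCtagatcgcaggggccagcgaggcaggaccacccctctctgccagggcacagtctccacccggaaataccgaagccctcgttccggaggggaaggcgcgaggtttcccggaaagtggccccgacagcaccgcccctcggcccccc
Sele: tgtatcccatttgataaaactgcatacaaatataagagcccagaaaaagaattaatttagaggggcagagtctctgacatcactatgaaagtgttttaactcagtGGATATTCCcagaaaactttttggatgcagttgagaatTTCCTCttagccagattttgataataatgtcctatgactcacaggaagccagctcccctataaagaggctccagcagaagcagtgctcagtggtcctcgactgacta
Selp: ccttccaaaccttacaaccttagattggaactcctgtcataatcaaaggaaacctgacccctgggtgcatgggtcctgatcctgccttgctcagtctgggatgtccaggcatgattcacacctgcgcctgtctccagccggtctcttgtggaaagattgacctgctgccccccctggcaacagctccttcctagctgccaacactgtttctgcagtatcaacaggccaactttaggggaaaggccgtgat

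In the windows of 250 bases before to 50 after the start, Itgam held 3 copies of GAGGAA, at -84 to -79 on the plus strand, at -15 to -10 on the minus strand and at 33 to 38 on the minus strand, the last of them outside the stretch shown. Sele held 1 copy, at -107 to -102 on the minus strand. GGANATTCC occurred in Icam1 at -153 to -145 and in Sele at -145 to -137, both on the plus strand. Neither sequence was in the windows of Selp, Itgax or Itga4. The longer NF-kB consensus, searched by name on both strands, matched none of the 6 windows. Of 27025 promoter windows of the same length, 28.3% held GAGGAA, 0.925% held GGANATTCC and 8.18% held the NF-kB consensus, with no motif overlapping another in the 6 windows. These matches describe letters, not binding.

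Depth was estimated at 10000000 to 12800000 reads per library in MI_DCA, 11100000 to 13900000 in MI_vehicle and 9600000 to 10700000 in sham_vehicle, from the spacing of the lowest values. At this depth Sele in sham hearts rested on about 7 to 20 reads, Itgax on 9 to 35, Itgal on 14 to 30 and Selp on 15 to 27, so levels of these 4 genes in sham hearts are coarse. Defining markers of cardiomyocytes, endothelium and leukocytes were present in all groups. Of the infarcted hearts, 4 stood apart. Nppb, the natriuretic peptide gene of stressed heart muscle, measured 144 to 324 FPKM in MI_DCA replicates 1, 3 and 5 and in MI_vehicle replicate 4, against 1102 to 3500 FPKM in the other infarcted hearts and 75 to 277 FPKM in sham hearts. Results below are also given without these 4 hearts, a choice made after seeing the data on a gene that is not among the 10.

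**Figure D1:**
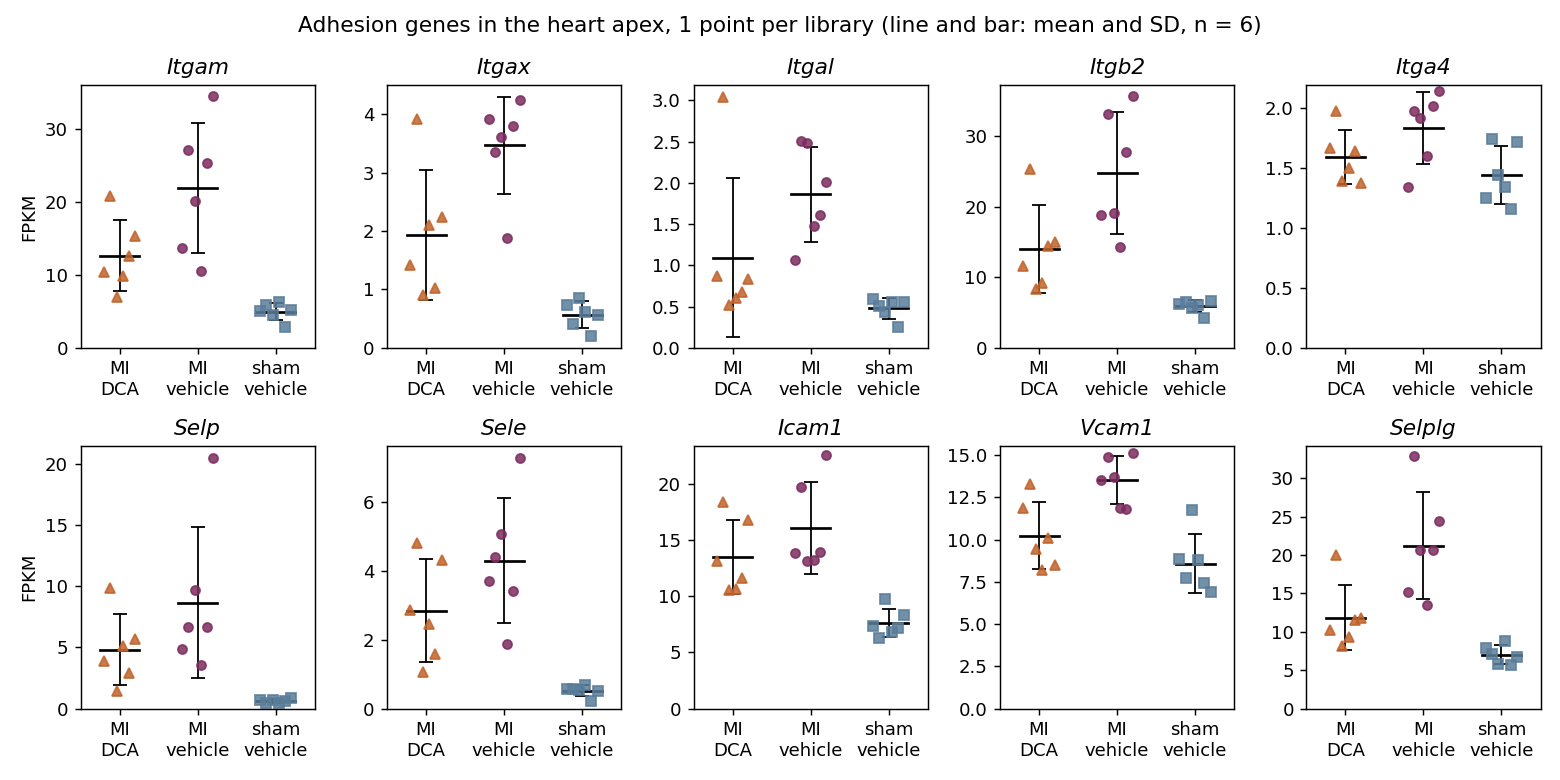
FPKM of the 10 genes in each heart, with MI_DCA left, MI_vehicle in the middle and sham_vehicle right in each panel, and horizontal lines and bars for mean and SD (n = 6). The 6 MI_vehicle points lie above all sham points for 9 genes but not for Itga4. Some MI_DCA points lie within the MI_vehicle range for every gene except Itgal. There MI_DCA replicate 2 lies above that range and the other MI_DCA points lie below it.

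In infarcted hearts given vehicle, both selectins, the selectin ligand, the beta2 integrin chains Itgal, Itgam, Itgax and Itgb2, Icam1 and Vcam1 were higher than in sham hearts. The change spanned a wide range, with ratios of mean FPKM between 1.58 for Vcam1 and 13.9 for Selp. Itga4 did not pass the test. Counted over all 10 genes, 9 rose and 0 fell (limma, Benjamini-Hochberg adjusted p under 0.05), where 38.3% of 11969 genes tested rose and 20.1% fell. The median log2 fold change was 1.47 for the 10 genes and 0.12 for all genes tested. Groups did not overlap in 9 of the 10 genes, against 16.1% of all genes with MI_vehicle above sham.

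Selp ranged from 3.53 FPKM (median 6.69) to 20.46 FPKM in MI_vehicle hearts and from 0.45 FPKM (median 0.635) to 0.83 FPKM in sham hearts. All MI_vehicle hearts lay above all sham hearts, and MI_vehicle replicate 6 lay far above the rest of its group. The log2 fold change of Selp was 2.38 (SE 0.28, adjusted p = 6.04e-05 by limma), and 2.12 without MI_vehicle replicate 6, the lowest of the values with 1 heart left out. Sele ranged from 1.88 FPKM (median 4.07) to 7.3 FPKM in MI_vehicle hearts and from 0.23 FPKM (median 0.555) to 0.7 FPKM in sham hearts, again without overlap. Its log2 fold change was 1.74 (SE 0.2, adjusted p = 4.44e-05 by limma). Both selectin genes were below 1 FPKM in every sham heart and at or above it in every MI_vehicle heart.

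Selplg, whose product PSGL-1 carries the sugars that P-selectin binds, had 13.48 FPKM (median 20.6) to 32.89 FPKM in MI_vehicle hearts and 5.66 FPKM (median 6.9) to 8.83 FPKM in sham hearts. The groups did not overlap. The log2 fold change was 1.43 (SE 0.18, adjusted p = 9.25e-05 by limma).

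Among the beta2 integrin genes, Itgam spanned 10.54 to 34.42 FPKM (median 22.8) in MI_vehicle hearts and 2.89 to 6.34 FPKM (median 5.1) in sham hearts. Itgb2, the chain shared by all of them, spanned 14.33 to 35.65 FPKM (median 23.4) in MI_vehicle hearts and 4.21 to 6.6 FPKM (median 6.17) in sham hearts. The log2 fold change was 1.86 for Itgam (SE 0.25, adjusted p = 0.000119) and 1.84 for Itgb2 (SE 0.2, adjusted p = 3.22e-05, both by limma), with no overlap between groups in either. Itgax, the alpha X chain of macrophages and dendritic cells, had 1.88 FPKM (median 3.7) to 4.24 FPKM in MI_vehicle hearts and 0.21 FPKM (median 0.59) to 0.85 FPKM in sham hearts, a log2 fold change of 1.5 (SE 0.15, adjusted p = 2.06e-05 by limma). Itgal, the alpha L chain found on most leukocytes and abundant on lymphocytes, had 1.06 FPKM (median 1.81) to 2.51 FPKM in MI_vehicle hearts and 0.25 FPKM (median 0.53) to 0.59 FPKM in sham hearts. These groups did not overlap either, and Itgal rose by 0.93 (SE 0.13, adjusted p = 0.000156 by limma). On the log2(FPKM + 1) scale the change of such low genes is understated: the ratio of mean FPKM was 3.87 for Itgal and 4.4 for Itgam.

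Itga4 had 1.34 FPKM (median 1.94) to 2.14 FPKM in MI_vehicle hearts and 1.16 FPKM (median 1.39) to 1.74 FPKM in sham hearts. The groups overlapped, and the log2 fold change of 0.21 did not pass the test (SE 0.09, 95% interval 0.01 to 0.42, adjusted p = 0.0685 by limma). It passed without sham_vehicle replicate 2 (adjusted p = 0.0496) or without MI_vehicle replicate 1 (adjusted p = 0.0269), and with each of the other 10 hearts left out it did not, with a largest adjusted p of 0.143.

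Icam1, the ligand of LFA-1 and Mac-1, had 13.1 FPKM (median 13.9) to 22.58 FPKM in MI_vehicle hearts and 6.28 FPKM (median 7.25) to 9.71 FPKM in sham hearts. Its log2 fold change was 0.97 (SE 0.14, adjusted p = 0.0002 by limma). Vcam1, the ligand of VLA-4, had 11.84 FPKM (median 13.6) to 15.15 FPKM in MI_vehicle hearts and 6.89 FPKM (median 8.27) to 11.76 FPKM in sham hearts. Its log2 fold change was 0.61 (SE 0.11, adjusted p = 0.00067 by limma). The groups of Vcam1 came close, with the lowest MI_vehicle heart at 11.84 FPKM and sham_vehicle replicate 3 at 11.76 FPKM.

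Itgal, Itgax, Sele and Selp passed the filter on low values only through the MI_vehicle hearts, since none of the 6 sham hearts reached 1 FPKM, so their rise was favoured by the filter. Without a filter the same count of 9 of the 10 genes rose, against 27.8% of 18381 genes. Without MI_vehicle replicate 4 the count was also 9 of 10, where 5063 of 11969 genes rose and 2754 fell. The median of all genes moved from 0.116 to -0.005 with median-ratio scaling and to -0.034 with quantile normalization, and the calls over all genes changed from 4583 higher and 2408 lower to 3379 and 3430, or 3195 and 3736. The 10 genes kept a count of 9 higher and 0 lower under both.

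**Figure D2:**
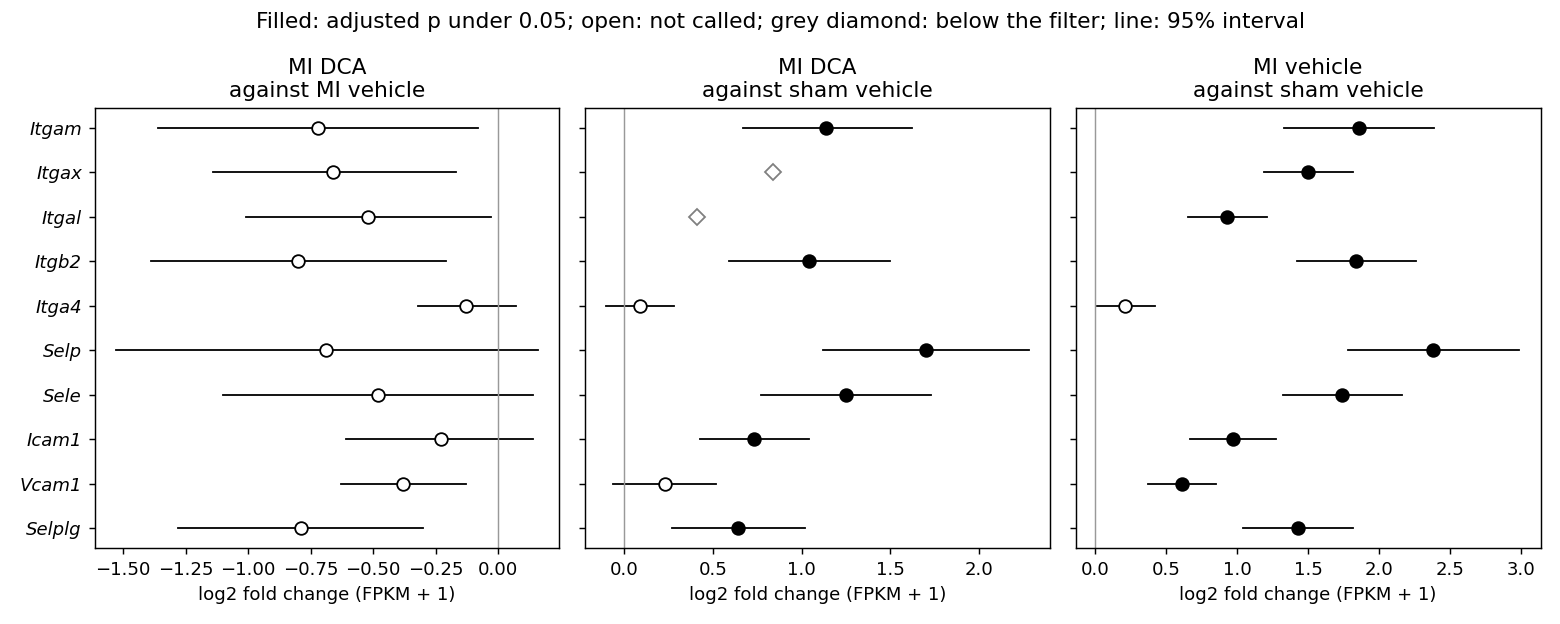
Log2 fold change on the log2(FPKM + 1) scale for the 10 genes in MI_DCA against MI_vehicle, MI_DCA against sham_vehicle and MI_vehicle against sham_vehicle, with lines for the 95% interval. Filled points passed an adjusted p under 0.05: none of 10 in the left panel, 6 of the 8 tested in the middle panel and 9 of 10 in the right panel.

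No adhesion gene of the 10 passed the test between infarcted hearts given DCA and infarcted hearts given vehicle after adjustment over all genes (smallest adjusted p = 0.407 by limma), and 0% of 12004 genes were called higher and 0% lower (smallest adjusted p = 0.301). All 10 had lower means in MI_DCA hearts, with ratios of mean FPKM of 0.556 for Selp to 0.869 for Itga4. The Selp value leans on MI_vehicle replicate 6, at 20.46 FPKM: its log2 fold change was -0.69, and -0.42 without that heart. At an unadjusted p under 0.05, 6 of the 10 genes were lower and 0 higher, against 9.22% of all genes lower and 1.6% higher. Without a filter these were again 6 and 0, where 1444 of 18337 genes were lower and 272 higher. The median log2 fold change was -0.59 for the 10 genes and -0.06 for all genes, of which 64.8% lay below 0. A lower median was not particular to the 10 genes. It was -0.61 for the pan-leukocyte markers taken up below and -0.62 for monocyte and macrophage markers. Neutrophil markers had -0.81 and endothelial markers 0.11, and no marker of these lists was called. In all 10 genes the groups overlapped.

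Itgb2 had 8.37 FPKM (median 13.0) to 25.38 FPKM in MI_DCA hearts, against 14.33 FPKM (median 23.4) to 35.65 FPKM in MI_vehicle hearts. Its log2 fold change was -0.80, with a 95% interval of -1.39 to -0.21 and an unadjusted p of 0.0117 by limma. Selplg had 8.21 FPKM (median 10.9) to 19.96 FPKM in MI_DCA hearts and 13.48 FPKM (median 20.6) to 32.89 FPKM in MI_vehicle hearts (log2 fold change -0.79, interval -1.28 to -0.30, unadjusted p = 0.0042 by limma). For Itgb2 MI_DCA replicates 2, 5 and 6 lay inside the MI_vehicle range, and for Selplg MI_DCA replicate 2 did.

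Itgam had 6.9 FPKM (median 11.5) to 20.81 FPKM in MI_DCA hearts and 10.54 FPKM (median 22.8) to 34.42 FPKM in MI_vehicle hearts (log2 fold change -0.72, interval -1.36 to -0.08, unadjusted p = 0.0294 by limma). Itgax had 0.9 FPKM (median 1.76) to 3.91 FPKM in MI_DCA hearts and 1.88 FPKM (median 3.7) to 4.24 FPKM in MI_vehicle hearts (log2 fold change -0.66, interval -1.14 to -0.17, unadjusted p = 0.0117 by limma). For Itgax MI_DCA replicates 2, 4 and 6 reached into the MI_vehicle range, and MI_vehicle replicate 4 was the low heart of its group. Itgal had 0.52 FPKM (median 0.76) to 3.04 FPKM in MI_DCA hearts and 1.06 FPKM (median 1.81) to 2.51 FPKM in MI_vehicle hearts. Here 5 MI_DCA hearts lay below every MI_vehicle heart and MI_DCA replicate 2 lay above them all. The log2 fold change of Itgal was -0.52 (interval -1.01 to -0.03, unadjusted p = 0.0403 by limma). Itgal reached 1 FPKM in 6 MI_vehicle hearts and 1 MI_DCA heart. It thus passed the filter through the MI_vehicle hearts, and a lower MI_DCA value was favoured by the filter. Without a filter its log2 fold change was also -0.52 (adjusted p = 0.523 by limma).

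Vcam1 had 8.2 FPKM (median 9.77) to 13.27 FPKM in MI_DCA hearts and 11.84 FPKM (median 13.6) to 15.15 FPKM in MI_vehicle hearts. Its log2 fold change was -0.38 (interval -0.63 to -0.13, unadjusted p = 0.00584 by limma), and MI_DCA replicates 1 and 2 lay in the MI_vehicle range. Icam1 had 10.51 FPKM (median 12.4) to 18.37 FPKM in MI_DCA hearts and 13.1 FPKM (median 13.9) to 22.58 FPKM in MI_vehicle hearts (-0.23, interval -0.61 to 0.14, and -0.14 without MI_vehicle replicate 6). Selp had 1.47 FPKM (median 4.47) to 9.85 FPKM in MI_DCA hearts and 3.53 FPKM (median 6.69) to 20.46 FPKM in MI_vehicle hearts (-0.69, interval -1.53 to 0.16). For both genes the interval held 0, so neither a fall nor an absence of change is shown. Sele had 1.06 FPKM (median 2.67) to 4.83 FPKM in MI_DCA hearts and 1.88 FPKM (median 4.07) to 7.3 FPKM in MI_vehicle hearts (-0.48, interval -1.10 to 0.14, and -0.32 without MI_DCA replicate 3). Itga4 had 1.37 FPKM (median 1.57) to 1.97 FPKM in MI_DCA hearts and 1.34 FPKM (median 1.94) to 2.14 FPKM in MI_vehicle hearts (-0.13, interval -0.32 to 0.07). Their unadjusted p values were 0.116 for Sele and 0.196 for Itga4, with 0.195 for Icam1 and 0.103 for Selp, all by limma.

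The hearts with low Nppb were unevenly placed, 3 of 6 in MI_DCA and 1 of 6 in MI_vehicle. For Selp those 3 MI_DCA hearts had 3.85, 1.47 and 2.93 FPKM, below the 9.85, 5.1 and 5.68 FPKM of MI_DCA replicates 2, 4 and 6. Itgax was split likewise. In each of the other genes the low-Nppb MI_DCA hearts mixed with the rest of their group. For Vcam1 they had 11.89, 9.45 and 10.09 FPKM, above the 8.2 and 8.48 FPKM of MI_DCA replicates 4 and 6. MI_vehicle replicate 4 was the lowest of its group for Itgam, Itgax, Itgb2, Sele, Selp and Selplg. With these 4 hearts left out, which leaves 3 MI_DCA and 5 MI_vehicle hearts, the median log2 fold change of the 10 genes was -0.36 and none was called. At an unadjusted p under 0.05, 4 genes were then lower by limma: Vcam1 (-0.46), Itgb2 (-0.73), Itgax (-0.38) and Selplg (-0.72), with adjusted p values from 0.365 to 0.442. Over all genes 1128 of 12004 were then lower and 193 higher at this cut, with a median log2 fold change of -0.072. Selp stood at -0.33 and Sele at -0.25. The part of these hearts in the difference was not tested beyond that. With median-ratio scaling the unadjusted counts over all genes became 519 higher and 611 lower in place of 192 and 1107, and with quantile normalization 552 and 579. Among the 10 genes 6 and 5 were then lower, with 0 higher under either.

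Against sham hearts, infarcted hearts given DCA had more mRNA of both selectins, Itgam, Itgb2, Icam1 and Selplg, while Vcam1 and Itga4 did not pass the test. Of the 10 genes 8 passed the filter, and 6 of these rose and 0 fell, against 15.5% of 11842 genes higher and 8.33% lower. Sele and Selp passed the filter only through the MI_DCA hearts. Without a filter 7 of 10 rose, against 7.84% of 18258 genes, Itgax joining the 6 at an adjusted p of 0.0296 and Itgal not being called at 0.178. Groups did not overlap in Selp, Sele, Itgam, Itgb2 and Icam1, nor in Itgax below the filter, where 6.31% of all genes tested had MI_DCA above sham without overlap.

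Selp averaged 4.81 ± 2.89 FPKM in MI_DCA hearts and 0.622 ± 0.148 FPKM in sham hearts (SD, n = 6 each), a log2 fold change of 1.70 (SE 0.27, adjusted p = 0.00455 by limma). Sele averaged 2.85 ± 1.49 FPKM and 0.522 ± 0.157 FPKM in MI_DCA and sham hearts (1.25, SE 0.22, adjusted p = 0.0075 by limma). In both genes MI_DCA replicate 3 was the heart nearest to sham. Itgam averaged 12.6 ± 4.9 FPKM in MI_DCA hearts and 4.98 ± 1.2 FPKM in sham hearts (1.14, SE 0.22, adjusted p = 0.00966 by limma), and Itgb2 14.0 ± 6.19 FPKM and 5.89 ± 0.884 FPKM (1.04, SE 0.21, adjusted p = 0.0114). Icam1 averaged 13.5 ± 3.33 FPKM in MI_DCA hearts and 7.6 ± 1.23 FPKM in sham hearts (0.73, SE 0.14, adjusted p = 0.00986 by limma). Each of these 5 genes lay above the sham range in every MI_DCA heart.

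Selplg averaged 11.8 ± 4.21 FPKM in MI_DCA hearts and 7.0 ± 1.23 FPKM in sham hearts (0.64, SE 0.17, adjusted p = 0.0255 by limma), with overlapping groups. Its call was lost without MI_DCA replicate 6 (adjusted p = 0.0505), sham_vehicle replicate 3 (0.0529) or sham_vehicle replicate 5 (0.0588). Vcam1 averaged 10.2 ± 1.99 FPKM in MI_DCA hearts and 8.57 ± 1.74 FPKM in sham hearts, with a log2 fold change of 0.23 (interval -0.06 to 0.52, adjusted p = 0.204 by limma). Itga4 averaged 1.59 ± 0.223 FPKM in MI_DCA hearts and 1.44 ± 0.24 FPKM in sham hearts (0.09, interval -0.10 to 0.28, adjusted p = 0.469 by limma). Below the filter, Itgax averaged 1.93 ± 1.11 FPKM in MI_DCA hearts and 0.563 ± 0.232 FPKM in sham hearts, with a two-sided exact permutation p of 0.00216, the smallest that 6 against 6 hearts can give. Itgal averaged 1.09 ± 0.964 FPKM in MI_DCA hearts and 0.48 ± 0.125 FPKM in sham hearts, with overlapping groups and a two-sided exact permutation p of 0.013, both unadjusted. Without the 3 MI_DCA hearts of low Nppb the same number, 6 of 8, rose, with 2.24 for Selp and 1.65 for Sele. Over all genes 3755 of 11842 were then higher and 2985 lower. Scaling changed the calls over all genes from 1830 higher and 987 lower to 1346 and 1393 with median-ratio scaling, or 1305 and 1554 with quantile normalization, and left 6 of 8 in both. The 3 comparisons share their hearts in pairs, so these counts are not independent of each other.

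Levels per transcript length ordered the 10 genes differently in infarcted and sham hearts. In MI_DCA hearts the means ran from Itgb2 at 14.0 FPKM, Icam1 at 13.5 FPKM and Itgam at 12.6 FPKM down to Itga4 at 1.59 FPKM and Itgal at 1.09 FPKM. In MI_vehicle hearts they ran from Itgb2 at 24.8 FPKM, Itgam at 21.9 FPKM and Selplg at 21.2 FPKM down to Itgal at 1.86 FPKM and Itga4 at 1.83 FPKM. In sham hearts Vcam1 at 8.57 FPKM, Icam1 at 7.6 FPKM and Selplg at 7.0 FPKM came first, and Itgal at 0.48 FPKM last. Every pair of neighbours in these orders overlapped in range except, in sham hearts, Itgam above Itga4 and Itga4 above Selp. Order between neighbours is therefore not resolved for the other pairs. Within groups the selectins varied most among the endothelial genes, with a coefficient of variation for Selp of 60.1% in MI_DCA, 70.9% in MI_vehicle and 23.9% in sham hearts, and for Vcam1 of 19.5% in MI_DCA, 10.5% in MI_vehicle and 20.3% in sham hearts.

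A beta2 chain reaches the cell surface only as a pair with an alpha chain. The mRNA of the alpha partners Itgal, Itgam, Itgax and Itgad together averaged 15.8 FPKM beside 14.0 FPKM of Itgb2 in MI_DCA hearts, 27.3 beside 24.8 FPKM in MI_vehicle hearts and 6.2 beside 5.89 FPKM in sham hearts. The ratio of the alpha sum to Itgb2 had a median of 1.1 (range 1.0 to 1.38) in MI_DCA hearts, 1.06 (0.972 to 1.38) in MI_vehicle hearts and 1.04 (0.831 to 1.28) in sham hearts. These ranges overlapped between the groups. Itgam made up a median of 80.9% of the alpha sum in MI_DCA hearts, 79.4% in MI_vehicle hearts and 79.9% in sham hearts. Itgad, the alpha D partner, averaged 0.132, 0.0733 and 0.183 FPKM in MI_DCA, MI_vehicle and sham hearts.

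**Figure D3:**
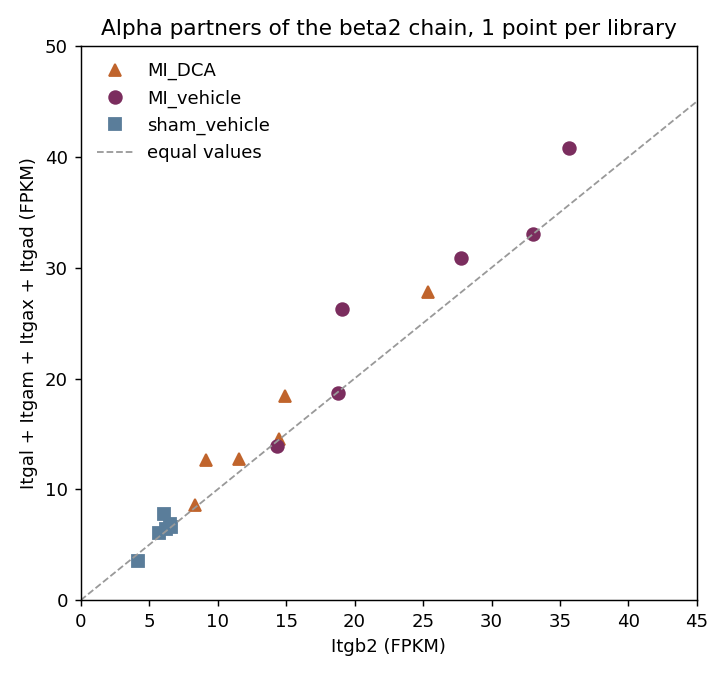
Summed FPKM of the alpha chains Itgal, Itgam, Itgax and Itgad (vertical) against FPKM of the beta2 chain Itgb2 (horizontal), 1 point per library, with a dashed line where both are equal. Points of all 3 groups lie near the line, with sham hearts at 4.21 to 6.6 FPKM of Itgb2 and the ratio between 0.831 and 1.38 over all hearts.

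Markers of whole cell types differed between the groups as well. In bulk tissue, fewer cells of a type and less RNA per cell cannot be told apart. The mean log2(FPKM + 1) of 7 pan-leukocyte markers, among them Ptprc, the gene of CD45, was 5.07 ± 0.52 in MI_DCA hearts, 5.65 ± 0.43 in MI_vehicle hearts and 4.16 ± 0.3 in sham hearts (SD, n = 6 each), and all 7 were called higher in MI_vehicle than in sham hearts. Neutrophil markers summed to 42 to 181 FPKM in MI_DCA, 56.8 to 386 FPKM in MI_vehicle and 11 to 39.4 FPKM in sham hearts. Of these 10 markers Ltf was near 0 in all groups, Camp in MI_DCA and sham hearts, and Ly6g in sham hearts. Monocyte and macrophage markers summed to 286 to 795, 477 to 1121 and 255 to 425 FPKM, and lymphocyte and NK markers to 1.34 to 4.07, 4.31 to 6.2 and 2.87 to 4.32 FPKM, in MI_DCA, MI_vehicle and sham hearts. Dendritic cell markers summed to 8.37 to 11.3, 9.09 to 11.2 and 7.12 to 9.52 FPKM in the same groups. Of the 11 lymphocyte and NK markers 1 passed the filter in MI_vehicle against sham hearts, so their sums rest on values near the floor. Cd3d, Ms4a1 and Klrb1c were near 0 in MI_DCA hearts, and Ms4a1, Klrb1c and Ncr1 in sham hearts. Platelet markers summed to 32.2 to 75.4 FPKM in MI_DCA, 41.1 to 111 FPKM in MI_vehicle and 19.7 to 48.7 FPKM in sham hearts, with the defining markers Gp5 and Gp6 near 0 in all 3. The part of platelets in the Selp values was not tested.

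The leukocyte genes were also set against the leukocyte markers of the same heart. On the log2(FPKM + 1) scale, Selplg minus the marker mean differed by -0.06 between MI_vehicle and sham hearts, Itgam by 0.37 and Itgb2 by 0.35, each with overlap. With log2(FPKM + 0.1), an alternative chosen after seeing the data, these differences were -0.03, 0.47 and 0.42, the last without overlap. For the low genes Itgax and Itgal the value depended on the pseudocount: Itgax differed by 0.01 with log2(FPKM + 1) and 0.90 with log2(FPKM + 0.1), and Itgal by -0.56 and 0.16, with overlap in each case, so no direction relative to the markers is given for either. Itga4 minus the marker mean was -4.16 ± 0.36 in MI_vehicle hearts and -2.88 ± 0.29 in sham hearts, a difference of -1.28 without overlap (-1.25 with the smaller pseudocount, also without overlap). The level of Itga4 itself differed by 0.21 between these groups and the marker mean by more. In MI_DCA against MI_vehicle hearts the same differences were between -0.22 for Itgb2 and 0.46 for Itga4, and between -0.33 for Itgax and 0.42 for Itga4 with the smaller pseudocount, all with overlap, and Itgal turned sign, at 0.06 and -0.32. These differences are descriptions, and no test was made.

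The endothelial genes were set against 10 endothelial markers. The mean log2(FPKM + 1) of these markers was 5.07 ± 0.17 in MI_DCA hearts, 5.03 ± 0.1 in MI_vehicle hearts and 5.02 ± 0.14 in sham hearts (SD, n = 6 each), and of the 10 markers 3 were called higher and 3 lower in MI_vehicle against sham hearts. Relative to that mean, Selp differed by 2.38, Sele by 1.73, Icam1 by 0.96 and Vcam1 by 0.61 between MI_vehicle and sham hearts, without overlap except for Vcam1. With log2(FPKM + 0.1) these were 3.38, 2.76, 1.05 and 0.66, with the same overlap. Between MI_DCA and sham hearts the differences were 1.65 for Selp, 1.21 for Sele and 0.69 for Icam1 without overlap, and 0.18 for Vcam1 with overlap. Between MI_DCA and MI_vehicle hearts they were -0.73 for Selp, -0.52 for Sele, -0.42 for Vcam1 and -0.27 for Icam1, all with overlap. These too are descriptions without a test. Cardiomyocyte markers summed to 15099 to 36255 FPKM in MI_DCA, 15590 to 32418 FPKM in MI_vehicle and 33535 to 36763 FPKM in sham hearts, and 5 of 7 were called lower in MI_vehicle than in sham hearts. FPKM are shares of a library, and the part of these lower cardiomyocyte values in the values of other genes was not tested.

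**Figure D4:**
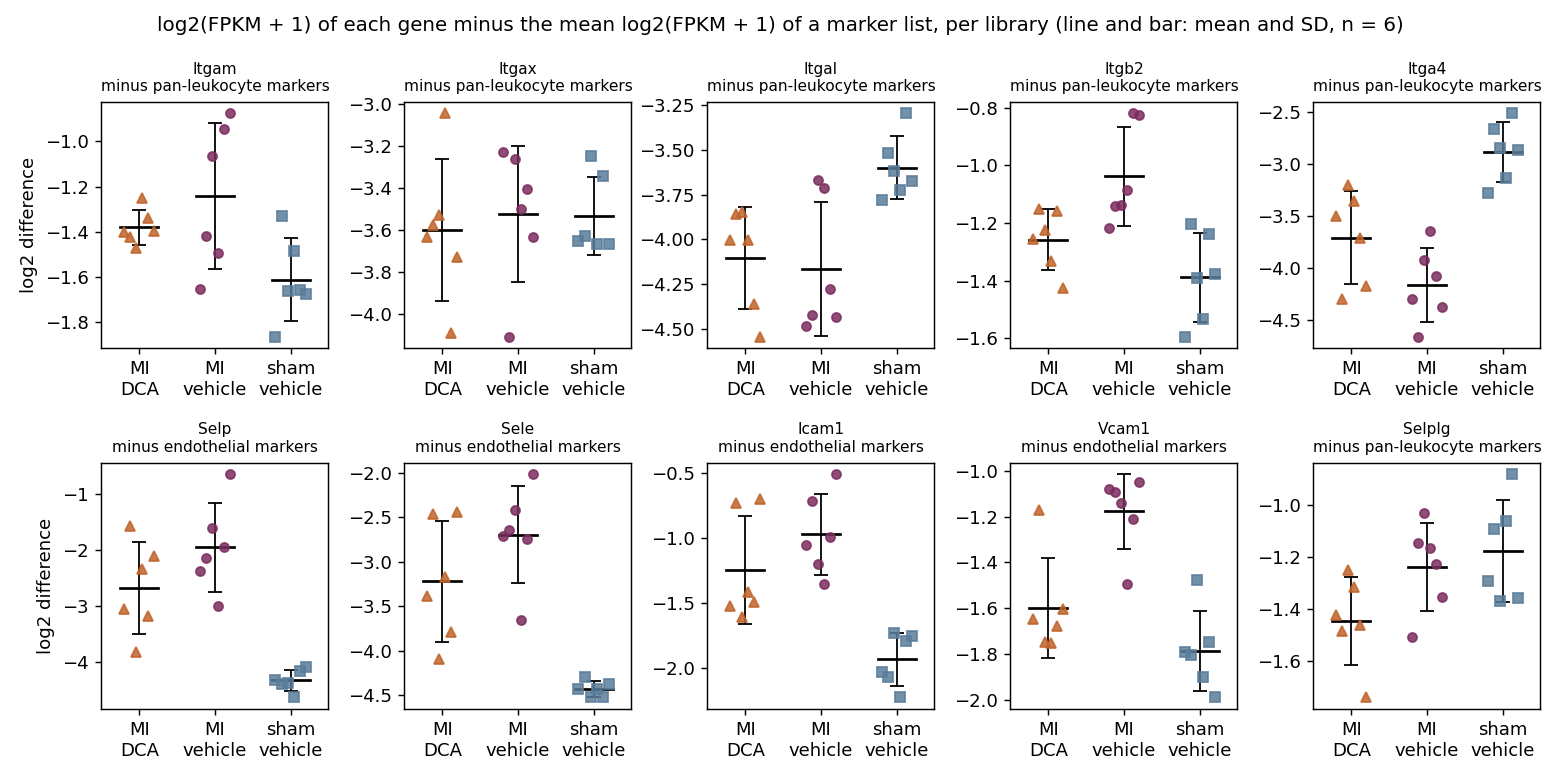
Each gene's log2(FPKM + 1) minus the mean of pan-leukocyte markers (for Itgam, Itgax, Itgal, Itgb2, Itga4, Selplg) or endothelial markers (for Selp, Sele, Icam1, Vcam1) in the same library, by group from MI_DCA left to sham_vehicle right, with mean and SD (n = 6). Selp, Sele and Icam1 lie above sham in every infarcted heart, and Itga4 lies lower in MI_vehicle (-4.66 to -3.64) than in sham hearts (-3.28 to -2.51). The places of Itgax and Itgal depend on the pseudocount.

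Other genes of the cascade, 64 in 5 lists, were counted in the same fit. Of 55 tested, 38 rose and 5 fell in MI_vehicle against sham hearts, with a median log2 fold change of 0.49 beside 0.12 for all genes, of which 38.3% rose and 20.1% fell. Some that rose had sham means under 1 FPKM, among them Fgr, Itgb7, Alcam, Ackr1 and Il1b. Their rise may have been favoured by the filter. Without a filter 41 of 64 rose and 6 fell, where 5109 of 18381 genes rose and 2602 fell. With median-ratio scaling 31 of the 55 rose and 6 fell, where 3379 of 11969 genes rose and 3430 fell. Quantile normalization gave 31 and 6 as well, where 3195 genes rose and 3736 fell. Integrin activation and signalling genes, which pass signals to and from the integrin tail, had 12 higher and 2 lower of 14 tested (median 1.16). Among them were Fgr, a Src-family kinase of myeloid cells (7.32 ± 2.6 FPKM in MI_vehicle and 0.832 ± 0.447 FPKM in sham hearts, log2 fold change 2.15, SE 0.22), and the exchange factor Vav1 (1.38, SE 0.13). The 2 lower were Cyth1 (-0.60) and Rasgrp2 (-0.53), an activator of Rap1 known from platelets. All 6 other integrin subunits tested rose (median 0.73), led by Itga5, the fibronectin receptor chain (108 ± 49.8 FPKM in MI_vehicle and 25.4 ± 1.85 FPKM in sham hearts, 1.89, SE 0.29), Itgb7 (1.32) and Itgb1, the partner of alpha 4 in VLA-4 (0.78, SE 0.16). Adjusted p values of these named genes ranged up to 0.00175, by limma.

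Of 11 selectin ligand and enzyme genes tested, 7 rose and 1 fell (median 0.32). Cd24a (2.45, SE 0.28) and Cd44 (2.02, SE 0.23), both of which can carry selectin ligands, were among those that rose. St3gal6, a sialyltransferase gene, fell by 0.64 on the log2 scale (adjusted p = 0.000921 by limma). Fut7, the fucosyltransferase of selectin ligands in leukocytes, lay below the filter at 0.162 FPKM in MI_DCA, 0.255 FPKM in MI_vehicle and 0.128 FPKM in sham hearts. Of 15 other endothelial and junctional molecules 6 rose and 2 fell (median 0.18), shares near the 38.3% and 20.1% of all genes. The rise was led by Mcam (73.2 ± 27.6 FPKM in MI_vehicle and 25.4 ± 2.15 FPKM in sham hearts, 1.39, SE 0.23), Alcam (0.87) and Ackr1 (0.82). The junctional genes Jam2 (-0.74) and Jam3 (-0.30) fell. Of 9 cytokine signal genes 7 rose and none fell (median 0.49), led by Il1b (14.2 ± 10.7 FPKM in MI_vehicle and 0.957 ± 0.27 FPKM in sham hearts, 2.70, SE 0.34), which induces endothelial adhesion molecules, and the TNF receptor genes Tnfrsf1b (1.09) and Tnfrsf1a (0.74).

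In MI_DCA against MI_vehicle hearts none of 57 tested cascade genes was called by limma, with a median of -0.25 beside -0.06 for all genes. At an unadjusted p under 0.05, 10 were lower and 2 higher, where 9.22% of all genes were lower and 1.6% higher. With median-ratio scaling 7 were lower and 3 higher, where 611 of 12004 genes were lower and 519 higher. Quantile normalization also gave 7 lower and 3 higher, where 579 genes were lower and 552 higher. The counts thus depended on the scaling, in the list and over all genes alike. In MI_DCA against sham hearts 27 of 53 rose and 4 fell, where 15.5% of all genes rose and 8.33% fell, with a median of 0.36 beside 0.05. With either scaling 24 rose and 4 fell. Over all 11842 genes 1346 then rose and 1393 fell with median-ratio scaling, or 1305 and 1554 with quantile normalization. Without a filter 25 of 64 rose and 3 fell, where 1432 of 18258 genes rose and 793 fell. In the main fit 17 rose and 2 fell without MI_DCA replicate 6, and 15 and 2 without sham_vehicle replicate 5. The counts over all genes moved too, between 741 and 2623 higher and between 319 and 1496 lower with 1 heart left out. Cascade genes called higher with all hearts included Il1b (1.95, SE 0.32), Cd24a (1.76, SE 0.30), Cd44 (1.48, SE 0.38), Fgr (1.44, SE 0.29) and Itga5 (1.36, SE 0.40, adjusted p = 0.0317 by limma). Of the other subunits Itga5 alone among 5 tested was called, where Itgb1 reached an adjusted p of 0.0773. Mcam (0.96), Tln1, the gene of talin (0.86), Ackr1 (0.69), Tnfrsf1b (0.61) and Tnfrsf1a (0.58) rose as well, and Jam2 fell by 0.5 on the log2 scale. Cyth1, St3gal6 and Jam3 fell too.

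**Figure D5:**
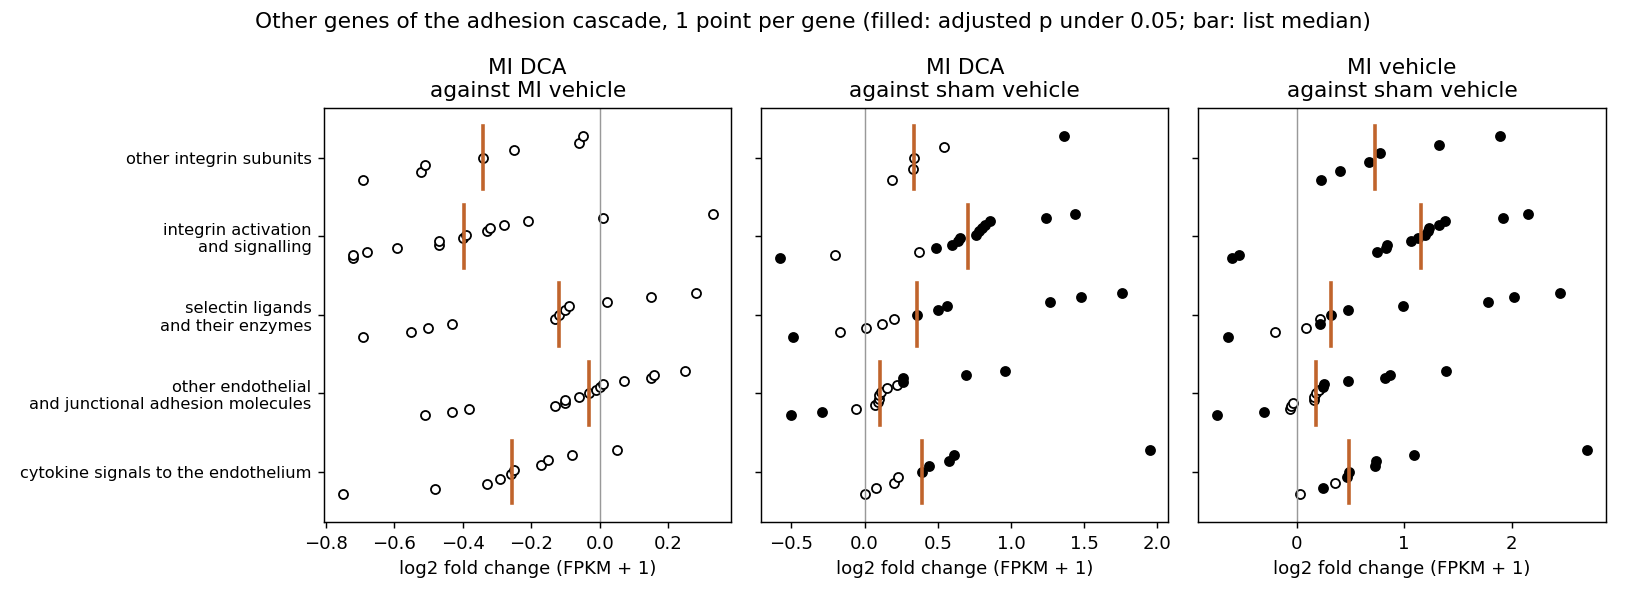
Log2 fold changes of the other cascade genes, 1 point per gene that passed the filter, in 5 lists, for MI_DCA against MI_vehicle, MI_DCA against sham_vehicle and MI_vehicle against sham_vehicle; filled points passed an adjusted p under 0.05 and bars are list medians. No point is filled in the left panel, 31 of 53 are in the middle one and 43 of 55 in the right one.

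Within groups the 10 genes varied together to different degrees. After subtraction of group means, Pearson r over the 18 libraries was 0.938 for Itgam and Itgb2 (0.905 over 14 libraries without the low-Nppb hearts), 0.899 for Sele and Selp (0.783) and 0.892 for Itgb2 and Selplg (0.841). The lowest was 0.282 for Itga4 and Vcam1 (0.221). These values describe libraries that share depth and cell make-up across genes. Among 11984 genes, the most alike to Itgb2 were C3ar1 (r = 0.96) and Apbb1ip (0.958), those to Itgam were Itgb2 (0.938) and Btk (0.937), and Ms4a6c (0.964) was among those most alike to Selplg. Itgal went most with Klra2 (0.898), Itgax with Gm13889 (0.942) and Xpo1 (0.932), and Itga4 with Lamp2 (0.87) and Phf8 (0.864). For the endothelial genes they were Ddx27 (0.942) and Gclc (0.938) for Sele, Exog (0.919) and Golga7 (0.911) for Selp, Psip1 (0.882) and Fcgr3 (0.871) for Icam1, and Epb41l2 (0.836) and Homer3 (0.825) for Vcam1. Without the low-Nppb hearts these 18 values lay between 0.811 and 0.963.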

How the data were processed

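RNA of the heart apex was captured for coding transcripts and sequenced as single reads of 50 bases, per the labels' protocols. Tools in the submitters' processing notes are RSEM 1.2.12, Bowtie2 2.2.5 and DESeq2 1.4.5, with the build GRCm38.p6 and no roles given. The deposited gene tables hold FPKM rounded to 2 decimals by the authors, and no counts, so errors are spreads between libraries. No header gives the unit, so it was checked from the values. Depth was estimated from steps of 1 read, searched between 8000000 and 16000000 reads. Each pair of groups was fitted with limma 3.58.1 (R 4.3.3, intensity trend) on log2(FPKM + 1), keeping genes that reached 1 FPKM in at least 6 of 12 libraries, with Benjamini-Hochberg adjustment over all genes tested and a threshold of 0.05. A two-sided exact permutation test (scipy 1.17.1) took the place of limma for genes under that filter. The fit was tested on simulated data. The 10 genes, gene lists and markers were chosen with earlier results of these data known. Named are the 10 genes, up to 3 called genes of each list and comparison with the largest change, and the 2 genes most alike to each of the 10; genes that fell or lay below the filter in a list are named in addition, after their values were seen. Some genes that this rule takes are not reported here. Groups came from the tissue and treatment labels. Promoters and coordinates came from RefSeq tables of GRCm38.p6, with 19051 of 19197 gene identifiers matched. No 2 libraries held identical values. The alternatives were another pseudocount, 2 other filters, 2 scalings, a common fit of 18 libraries, the replicate number as a block and leaving out libraries.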

Additional observations from a re-analysis of the deposited data

Results flagged for a closer look

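In 4 of 30 groups of 6 values (10 genes in 3 groups), the highest or lowest heart lay farther from its neighbour, relative to the range of its group, than Dixon's 95% critical value for 6 samples. Chance gives about 1 in 20 groups where groups are independent. These groups are not, since the 10 genes were measured in the same hearts. The count of 4 is therefore not weighed against chance. Selplg in MI_DCA replicate 2 was 19.96 FPKM, with a gap of 0.691 of the range. Itgal in the same heart was 3.04 FPKM, with a gap of 0.861. Selp in MI_vehicle replicate 6 was 20.46 FPKM, with a gap of 0.637. Itgax in MI_vehicle replicate 4 was 1.88 FPKM and the lowest of its group, with a gap of 0.627, and this heart is one of the 4 infarcted hearts of low Nppb.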

How the results depend on the processing

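The genes of the 10 that passed the filter gave 560 log2 fold changes under the alternatives; Itgal and Itgax are not among them in MI_DCA against sham hearts. None changed sign, 555 stayed on their side of the threshold, 3 lost and 2 gained a call, and these 5 are the values of Selplg and Itga4 with 1 heart left out given above. In MI_DCA against sham hearts Itgax was called with no filter (adjusted p = 0.0296) and with a mean of at least 0.5 FPKM (adjusted p = 0.0196, both by limma), so that 7 of the 10 genes were called under either, and Itgal was not (0.178 and 0.138). Leaving out 1 heart moved the number of the 10 genes called between 9 and 10 in MI_vehicle against sham hearts and between 5 and 6 in MI_DCA against sham hearts, and gave 0 in MI_DCA against MI_vehicle hearts each time. The other cascade genes called in MI_DCA against sham hearts numbered 31, and 17 to 33 with 1 heart left out. Over all genes this comparison varied more, with 741 to 2623 higher and 319 to 1496 lower when 1 heart was left out, and 3755 and 2985 without the low-Nppb hearts. The titles number the libraries 1 to 6 in each group, but same-numbered libraries did not deviate together throughout (r from -0.446 to 0.69), so the number was not taken as a pairing. With the replicate block, 9, 0 and 6 of the 10 genes were called in MI_vehicle against sham, MI_DCA against MI_vehicle and MI_DCA against sham hearts, as without it, with a smallest adjusted p of 0.0748 by limma in MI_DCA against MI_vehicle hearts, and 1124 genes were higher and 572 lower in MI_DCA against sham hearts. Depth limits Sele, Selp, Itgax and Itgal in sham hearts.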

Other observations

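The deposited transcript values split several of the 10 genes unevenly. Icam1, Vcam1, Itga4 and Selp had 1 transcript each. Itgam was split between 2 transcripts. The share of 1 of them ranged from 0.0% to 98.4% in MI_DCA hearts and from 0.0% to 98.3% in sham hearts. In MI_vehicle hearts it was at least 32.8%. Which transcript was present is therefore not resolved by these values. The shares of the transcripts of Itgal, Itgb2 and Sele also varied between hearts of a group. Selplg was mostly assigned to 1 of its 2 transcripts, with a median share of 84.7% in MI_DCA, 89.8% in MI_vehicle and 82.1% in sham hearts. Values per gene, used in all comparisons, do not depend on this split except through transcript length.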
